A study of Mus musculus with 8 samples.

Results

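The brain extracellular matrix proteoglycans described here are 9 genes, chosen by symbol from the 23284 symbols counted in each library: the lecticans Ncan, Bcan, Vcan and Acan, the link protein genes Hapln1 and Hapln4, the lectican partner Tnr, and the membrane proteoglycans Cspg5 and Ptprz1. All 9 symbols had reads, and 8 passed the filter on low counts with 14696 genes in all. Acan did not pass. The study asked which genes change in the developing cortex when the receptor tyrosine kinase ErbB4 is lost, and polyA RNA of dorsal cortex from C57BL/6 embryos at E15.5 was sequenced in 4 WT and 4 ErbB4-/- libraries. Neither group received a treatment, and the meninges and ganglionic eminences had been dissected away from both. ErbB4 is needed for heart formation, and ErbB4-/- mice are kept alive by a transgene that supplies ErbB4 in the heart from the α-MHC promoter. Nothing in the labels says whether the embryos of a genotype came from separate litters, so p-values measure the spread between these libraries only. The paper states that embryos were bred within homozygous lines, so line, dam and litter coincide with genotype.

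Lecticans are secreted core proteins that carry chondroitin sulfate chains. One end of a lectican holds hyaluronan, a long sugar polymer spun out at the cell surface, and the other end holds tenascins such as tenascin-R. Link proteins of the Hapln family clamp the lectican to hyaluronan, and together these parts make the loose matrix between brain cells. In the fetal cortex this matrix is laid down by radial glia and young neurons, and the dense coats around mature neurons known as perineuronal nets, rich in aggrecan, link proteins and tenascin-R, assemble only after birth. Cspg5 and Ptprz1 differ from lecticans in spanning the cell membrane.

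The members lie on 7 chromosomes, and 3 of the lecticans sit next to a link protein gene of this family in a tail-to-tail arrangement. In the mouse genome build NCBIM37 (mm9, the build of the authors' alignment) with GENCODE annotation, Ncan lies at chr8:72616984-72644772 on the minus strand, and Hapln4 at chr8:72607428-72614761 on the plus strand ends 2.22 kb from it. Vcan lies at chr13:89794915-89882117 on the minus strand and Hapln1 at chr13:89680241-89751437 on the plus strand, 43.5 kb apart. Acan lies at chr7:86198369-86259985 on the plus strand, and its neighbour Hapln3, which is not a member, begins only 40 bp past it on the other strand. Bcan lies at chr3:87791453-87804278 on the minus strand, 21.4 kb from Hapln2 on the same strand. In none of the 4 pairs did a coding gene lie between the lectican and the link protein gene. Tnr lies at chr1:161667641-161855053 on the plus strand, on the same chromosome as Erbb4 but 92.5 Mb away. Cspg5 lies at chr9:110146287-110165079 and Ptprz1 at chr6:22825502-23002916, both on the plus strand. No member shared exon sequence with an overlapping annotated gene. The libraries did not keep the strand.

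The start-site windows of 3 members are printed because these genes mark the highest level (Ncan), the only separation of the genotypes (Tnr) and the lowest level (Acan) among the members. They are RefSeq windows of 300 bases, 250 before and 50 after the annotated start, in build GRCm38.p6, which is not the build of the alignment. Capitals mark the GC box (GGGCGG) on either strand, the letters CCAAT on either strand and the core of a TATA box (TATAA) on either strand, 3 motifs that were chosen with the sequences in view. Ncan is at chr8:70120795-70121094 on the minus strand, Tnr at chr1:159523519-159523818 on the plus strand and Acan at chr7:79052976-79053275 on the plus strand.
Ncan: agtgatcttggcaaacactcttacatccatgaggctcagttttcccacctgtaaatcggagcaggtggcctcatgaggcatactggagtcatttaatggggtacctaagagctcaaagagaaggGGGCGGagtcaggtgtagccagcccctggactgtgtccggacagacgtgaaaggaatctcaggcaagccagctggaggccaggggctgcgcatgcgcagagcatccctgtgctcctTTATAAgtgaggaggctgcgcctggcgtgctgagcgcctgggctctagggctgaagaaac
Tnr: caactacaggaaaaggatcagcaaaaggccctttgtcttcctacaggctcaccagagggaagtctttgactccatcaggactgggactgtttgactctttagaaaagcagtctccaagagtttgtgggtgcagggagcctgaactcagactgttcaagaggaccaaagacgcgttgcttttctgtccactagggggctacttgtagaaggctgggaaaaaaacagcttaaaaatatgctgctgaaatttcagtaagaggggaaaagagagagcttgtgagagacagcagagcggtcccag
Acan: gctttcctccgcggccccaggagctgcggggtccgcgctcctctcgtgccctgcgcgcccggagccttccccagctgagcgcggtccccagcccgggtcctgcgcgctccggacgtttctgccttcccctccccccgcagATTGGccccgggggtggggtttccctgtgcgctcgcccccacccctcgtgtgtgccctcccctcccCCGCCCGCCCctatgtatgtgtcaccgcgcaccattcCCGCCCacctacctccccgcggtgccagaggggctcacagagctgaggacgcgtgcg

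The Ncan window held 9 CpG dinucleotides, near the median of 7 over 32851 windows of this length, with 1 GC box and 2 overlapping matches to the TATA core, 1 on each strand. The TATA core occurred in 24.9% of all windows, the GC box in 35.7% and the CCAAT letters in 37.4%. The Acan window held 31 CpG, 3 GC boxes, of which a pair overlap, and 1 CCAAT. The Tnr window held 3 CpG and none of the 3 motifs. The other windows held 29 CpG (Ptprz1), 24 (Bcan), 12 (Vcan) and 3 (Hapln1), and 7 of the 9 members had a window in the table used. These matches describe letters only: the gene with the lowest level had the most CpG of the 7.

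The libraries held from 28205703 to 48871480 counts. Erbb4, the targeted gene, was not lower in the libraries labelled ErbB4-/- (22.4 ± 1.92 CPM, SD, n = 4, where CPM are counts scaled to a common library size) than in WT (18.3 ± 6.81, n = 4), with an adjusted p of 0.812 by edgeR's quasi-likelihood test with Benjamini-Hochberg adjustment. The exons that this allele lacks were not given in the sources used here, and reads from the rest of the gene are counted, so this total does not check the labels. Dorsal telencephalic markers were present throughout (Emx1 70.5 CPM in WT and 63.5 in ErbB4-/-). Xist was at 983 to 1686 CPM in WT replicates 1 to 3 and at 2.70 to 3.82 CPM in the other 5 libraries, so embryo sex and genotype largely coincide. WT replicate 1 stood apart: across genes, its deviation from the other 7 libraries fell with transcript length (Spearman's rho -0.58, against 0.04 to 0.22 in the others, a description since genes are not replicates).

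The fetal cortex expressed 6 of the 9 members at substantial levels, among them the net component Tnr, and Acan, Hapln1 and Hapln4 barely. Per length of merged exons, in RPKM (CPM divided by the exon length in kilobases, mean ± SD over all 8 libraries), Ncan was highest at 68.6 ± 8.49, followed by Ptprz1 at 39.1 ± 4.90 and Cspg5 at 29.7 ± 2.90. Vcan followed at 13.1 ± 1.82, Bcan at 12.3 ± 1.49 and Tnr at 4.58 ± 1.09. A gap of 24.5-fold then separated Tnr from Hapln4 at 0.187 ± 0.0659, Hapln1 at 0.0719 ± 0.0318 and Acan at 0.0324 ± 0.0152. Both genotypes gave the same order. Ncan exceeded Ptprz1 in all 8 libraries and Ptprz1 exceeded Cspg5 in 7, whereas Vcan exceeded Bcan in only 4, so the order of Vcan and Bcan was not resolved. Because Vcan makes several transcripts of unequal length, its level per length depends on which are used, and these counts do not separate them.

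**Figure D1:**
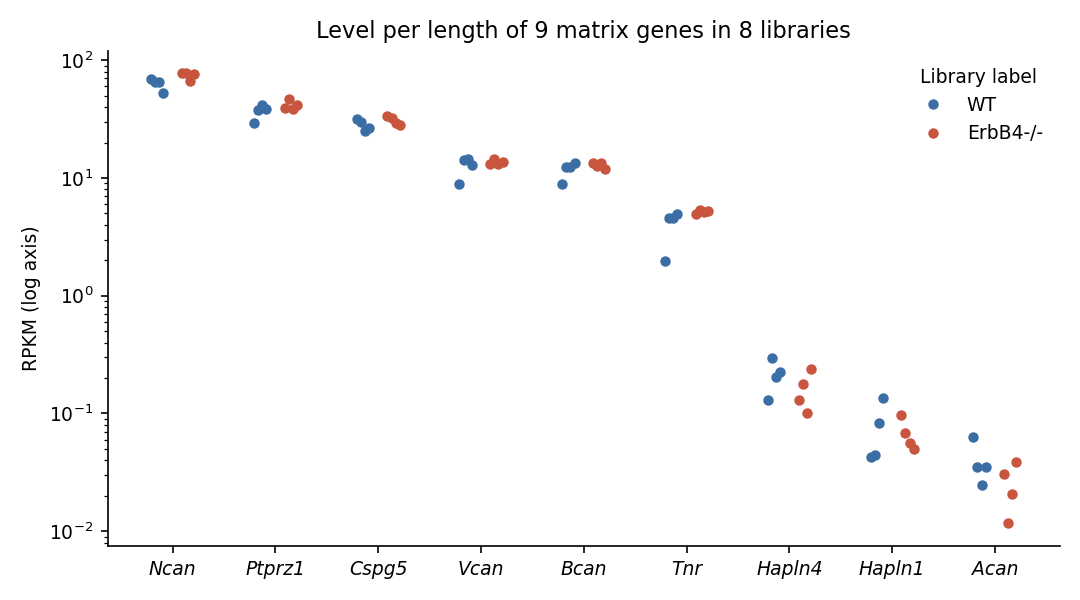
Level per length (RPKM, log axis) of the 9 members, each point a library, coloured by genotype, with members in order of their mean. Ncan leads at 68.6 RPKM, and Hapln4, Hapln1 and Acan lie more than an order of magnitude under Tnr at 4.58 RPKM.

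None of the 8 tested members passed an adjusted p of 0.05 in edgeR's quasi-likelihood test, against 0.0272% of all genes tested (4 of 14696). DESeq2 and limma-voom also called 0 members. At an unadjusted p under 0.05 there was 1 member, Ncan, against 5.53% of all genes, and 1 member, Tnr, had genotypes that did not overlap, against 3.34% of all genes. Of the 8 fold changes 6 were positive, with a median log2 fold change of 0.13 (ErbB4-/- over WT) beside -0.002 over all genes, of which 49.2% were positive. Without WT replicate 1, 5 of 8 were positive and the median was 0.05. In bulk tissue, fewer cells of a type and less RNA per cell cannot be told apart.

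Ncan encodes neurocan, the lectican most restricted to the nervous system, and it was the member with the most reads, 13291 to 27360 per library. The WT libraries held 494, 471.8, 466.2 and 379 CPM in replicate order, and the ErbB4-/- libraries held 555, 557, 475 and 552.5. Of these, 3 ErbB4-/- libraries lay above every WT library and ErbB4-/- replicate 3 lay within the WT range. The means were 453 ± 50.7 CPM in WT and 535 ± 39.98 in ErbB4-/- (SD, n = 4 each), an 18.2% difference. The log2 fold change was 0.24 (SE 0.08, 95% interval 0.06 to 0.43), with an unadjusted p of 0.0148 and an adjusted p of 0.81 by edgeR, and the exact two-sided permutation test gave 0.0571. The lowest library, WT replicate 4, is the only WT library without high Xist. With Xist as a covariate the log2 fold change was 0.50, a value that sets the 4 ErbB4-/- libraries against this 1 WT library and so has no replicate on the WT side. Without WT replicate 4 it was 0.17 (unadjusted p 0.0346 by edgeR), and with the transcript-length trend removed it was 0.16 (unadjusted p 0.178 by edgeR). The part of sex in the Ncan difference was not tested, since no ErbB4-/- library had high Xist.

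Tnr encodes tenascin-R, a trimeric glycoprotein that bridges lecticans at their C-terminal ends. WT replicate 1 held 9.70 CPM, and the other WT libraries held 22.65, 22.8 and 24.5 CPM. The ErbB4-/- libraries held 24.7, 26.2, 25.3 and 25.7 CPM. Every ErbB4-/- library was above every WT library, although the nearest pair, WT replicate 4 and ErbB4-/- replicate 1, stood at 24.49 and 24.70 CPM. Group means were 19.9 ± 6.86 and 25.5 ± 0.641 CPM (SD, n = 4 each). The log2 fold change of 0.35 (SE 0.21, interval -0.12 to 0.82) had an adjusted p of 0.81 by edgeR, and the exact two-sided permutation test gave 0.0286, the smallest p that 4 against 4 libraries allow. Leaving out WT replicate 1 took the log2 fold change to 0.13 (interval -0.004 to 0.26). That the genotypes then did not overlap was fixed beforehand, since they already did not overlap with all 8 libraries. With Xist as a covariate it was 0.11, again against WT replicate 4 alone.

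**Figure D2:**
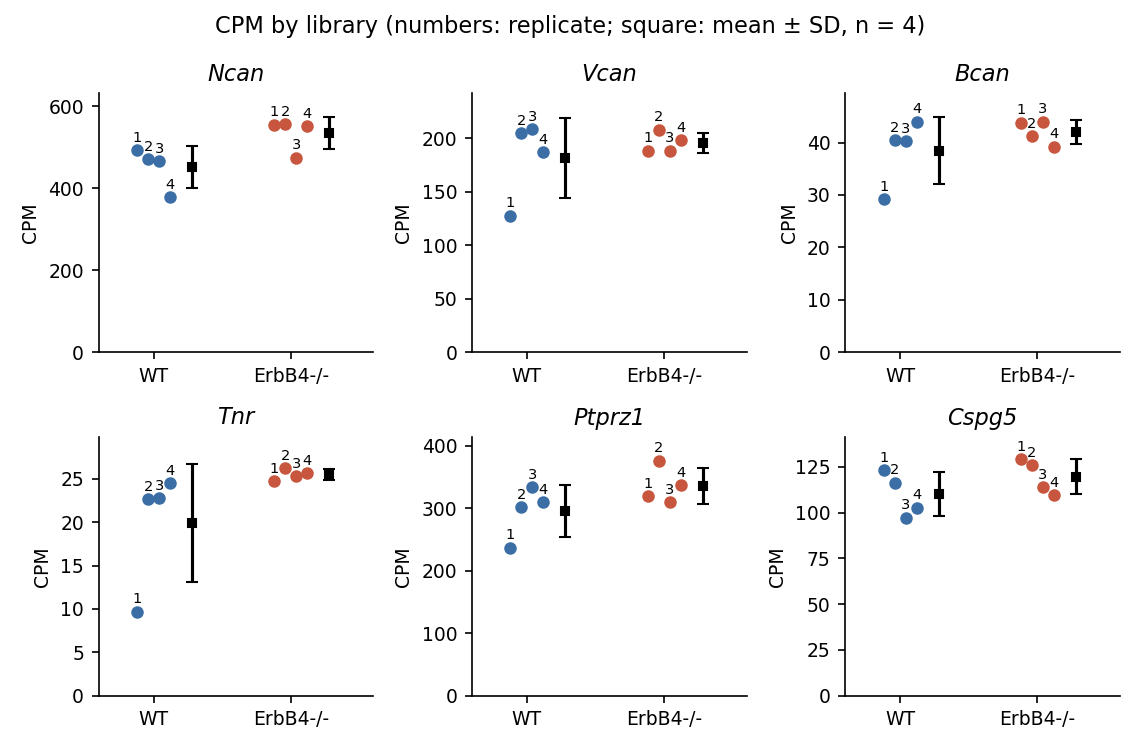
CPM of the 6 members with substantial levels in each of the 8 libraries, 1 panel per member with its own linear axis from 0, where numbers give the replicate and squares the group mean ± SD (n = 4). Tnr is the only panel in which the genotypes do not overlap, and its WT replicate 1 lies far under the rest at 9.70 CPM.

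Among the other lecticans, Vcan (versican, the lectican with the widest expression outside the brain) held 128, 205, 209 and 187 CPM in the WT libraries and 189, 208, 189 and 198 CPM in the ErbB4-/- libraries. The genotypes overlapped and WT replicate 1 was the lowest of the 8. The log2 fold change was 0.10 (SE 0.12, interval -0.17 to 0.38), and it turned to -0.03 without WT replicate 1. Bcan (brevican, a lectican of glia that increases as the brain matures) held 29.1, 40.5, 40.2 and 44.0 CPM in WT and 43.8, 41.2, 44.0 and 39.2 CPM in ErbB4-/-. Here too WT replicate 1 was lowest and the remaining 7 libraries lay within 39.2 to 44.0 CPM. Its log2 fold change was 0.13 (SE 0.11, interval -0.11 to 0.37) and 0.02 without WT replicate 1, and it turned to -0.047 with Xist as a covariate. The adjusted p by edgeR was 0.854 for Vcan and 0.822 for Bcan.

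Acan encodes aggrecan, the main lectican of cartilage and of perineuronal nets. It had 13, 8, 7 and 9 reads in the WT libraries and 11, 3, 6 and 9 reads in the ErbB4-/- libraries, 66 in all. These are 0.290 ± 0.121 CPM in WT and 0.187 ± 0.0863 in ErbB4-/- (SD, n = 4 each). The groups overlapped, and the exact two-sided permutation test gave 0.20. At this depth a difference in Acan of the size seen in Ncan was not detectable.

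The balance among lecticans can be read from ratios of CPM within a library. Vcan per Ncan was 0.259, 0.434, 0.447 and 0.495 in the WT libraries and 0.340, 0.374, 0.397 and 0.359 in the ErbB4-/- libraries. WT replicate 1 lay under all the ErbB4-/- libraries and the other 3 WT libraries lay above all of them. Bcan per Ncan was 0.0867 ± 0.0233 in WT and 0.0790 ± 0.00956 in ErbB4-/- (SD, n = 4 each). Ncan made up 36.1% to 48.3% of the summed CPM of the 9 members in WT and 41.0% to 44.0% in ErbB4-/-. The summed CPM was 1100 ± 76.2 in WT and 1255 ± 73.6 in ErbB4-/- (SD, n = 4 each), which is 0.102% to 0.134% of a library, and ErbB4-/- replicate 3 at 1158 CPM lay within the WT range of 1022 to 1171 CPM.

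The link protein genes were near the limit of detection, with 19 to 52 reads for the pair in a library. Hapln1 encodes the link protein first known from cartilage, and had 6, 7, 16 and 24 reads in WT and 24, 12, 11 and 8 reads in ErbB4-/-. Its 4 WT libraries spanned all of the ErbB4-/- libraries. For Hapln1 the log2 fold change stood at -0.17 (SE 0.41, interval -1.06 to 0.72), and it turned to 0.25 without WT replicate 4. Hapln4, a link protein of neurons known from nets of the hindbrain, had 13, 33, 28 and 28 reads in WT and 23, 22, 14 and 27 reads in ErbB4-/-. The genotypes overlapped again, with a log2 fold change of -0.43 (SE 0.33, interval -1.15 to 0.29) and an adjusted p of 0.81 by edgeR. It was -0.24 without WT replicate 2, -0.26 without ErbB4-/- replicate 3 and -0.67 without ErbB4-/- replicate 4. As ratios, the intervals ran from 0.479 to 1.65 for Hapln1 and from 0.452 to 1.22 for Hapln4, so the depth limits what can be said of either gene.

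Cspg5 encodes neuroglycan C, a membrane proteoglycan with an EGF-like domain. Its WT libraries held 123, 116.5, 97.3 and 103 CPM and its ErbB4-/- libraries held 129, 126, 114 and 109.5 CPM. The genotypes overlapped, with ErbB4-/- replicates 1 and 2 above every WT library. The log2 fold change was 0.12 (SE 0.08, interval -0.06 to 0.30), with an adjusted p of 0.81 by edgeR. It was 0.07 without WT replicate 3, 0.18 without WT replicate 1 and 0.20 with Xist as a covariate.

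Ptprz1 encodes a receptor tyrosine phosphatase of radial glia and oligodendrocyte precursors whose secreted form is phosphacan, and whose ligands include pleiotrophin and midkine. It held 237, 302, 334 and 309.5 CPM in WT and 320, 377, 310 and 337 CPM in ErbB4-/-. ErbB4-/- replicates 2 and 4 lay above the WT libraries and the other two lay among them. The log2 fold change was 0.18 (SE 0.10, interval -0.03 to 0.40), the adjusted p was 0.81 by edgeR, and the value was 0.09 without WT replicate 1. The transcripts of Ptprz1 that differ between the receptor and phosphacan forms are counted together.

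**Figure D3:**
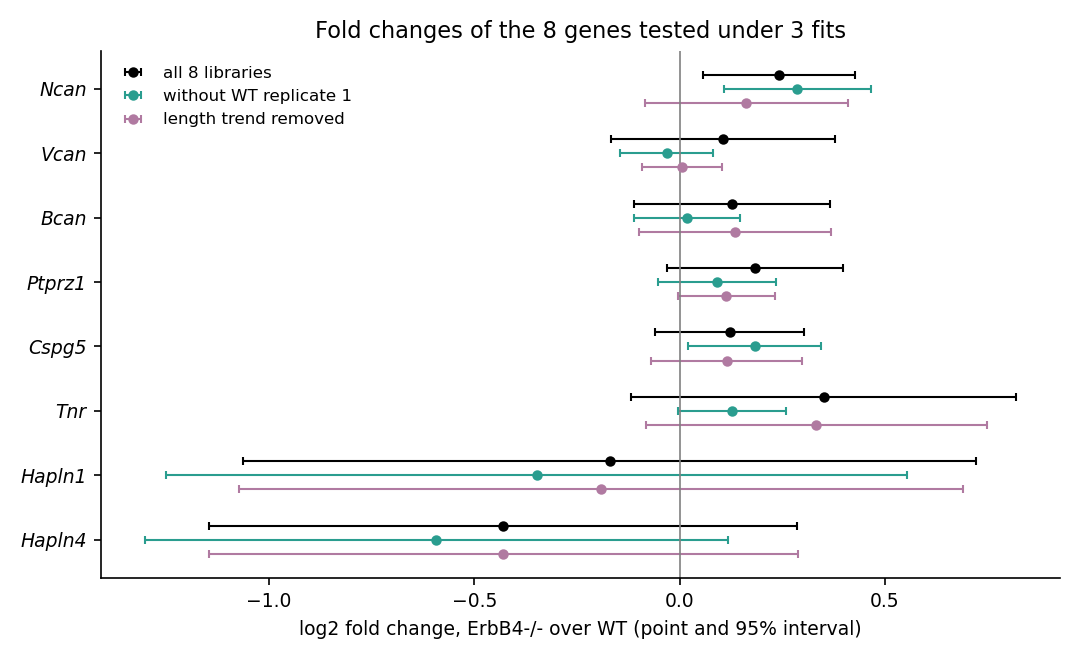
log2 fold change (ErbB4-/- over WT) of the 8 tested members with 95% intervals from edgeR's quasi-likelihood fit on all 8 libraries (black), without WT replicate 1 (green) and with the length trend removed (purple). The interval of Ncan alone lies above 0 in the fit on all 8 libraries, and the values of Vcan, Bcan, Tnr and Ptprz1 are nearer to 0 without that library.

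WT replicate 1 departed from the other libraries in some members and not in others. Relative to the mean of the other 7 libraries on the log2 scale, it stood at -1.33 in Tnr, -0.63 in Vcan, -0.52 in Bcan and -0.46 in Ptprz1. It stood at 0.01 in Ncan and 0.12 in Cspg5. Of the members with few reads, Hapln1 stood at -0.63, Hapln4 at -0.47 and Acan at 1.04. With the length trend removed, the log2 fold change between genotypes was 0.01 in Vcan, 0.11 in Ptprz1, 0.13 in Bcan and 0.33 in Tnr. What sets this library apart was not tested.

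**Figure D4:**
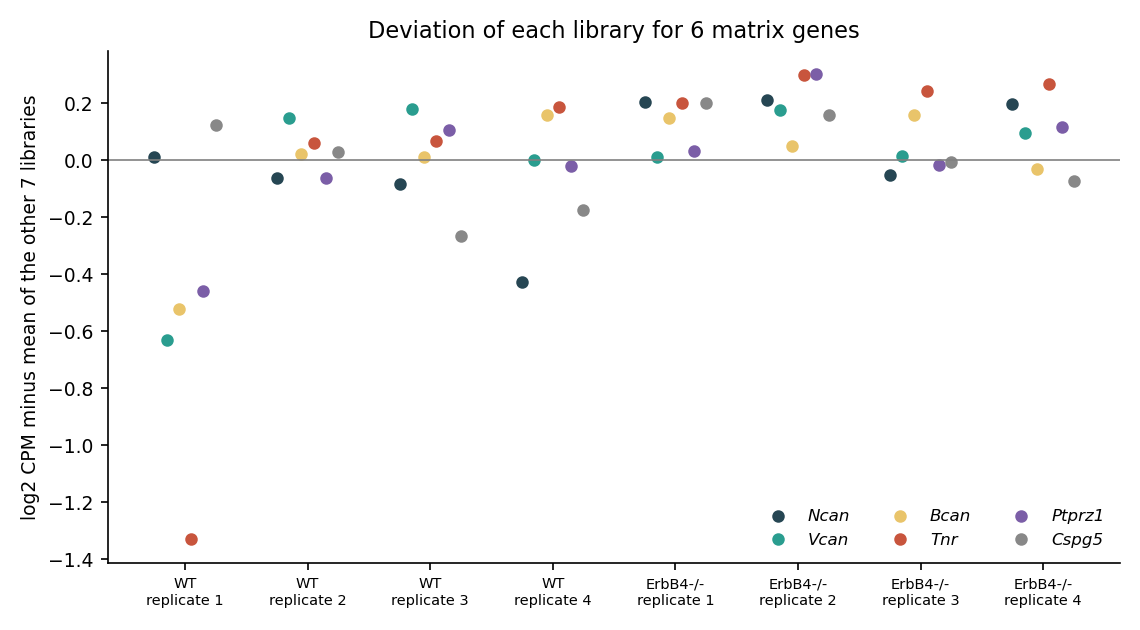
log2 deviation of each library from the mean of the other 7, for the 6 members with substantial levels. WT replicate 1 is low in Tnr, Vcan, Bcan and Ptprz1, and WT replicate 4 is low in Ncan at -0.43.

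The genes whose CPM varied most like each member over the 8 libraries were ranked by Pearson's r, as a description without a test. For Tnr they were Ncoa1 (r 0.996), Megf9 (0.995) and Arid5b (0.993), and for Vcan they were Ep300 (0.995), Zfp142 (0.995) and Nf1 (0.993). Without WT replicate 1 these r values were between 0.757 (Megf9) and 0.974 (Ncoa1). For Bcan they were Clmn (0.981), Uprt (0.980) and Zkscan16 (0.974), and for Ptprz1 they were Dcaf17 (0.975), Mdn1 (0.973) and Prkaa2 (0.971). Without WT replicate 1 the r values were 0.804 to 0.878 for Bcan and 0.894 to 0.906 for Ptprz1. Ncan was most like 1700030K09Rik (0.969), Ddx4 (0.948) and Mcart1 (0.946). Cspg5 was most like Arhgdig (0.977), Gpr25 (0.972) and Cxx1c (0.970). For Ncan and Cspg5 the r values without WT replicate 1 were 0.946 to 0.976. Hapln1 (Rrp12, 4930578M01Rik and Plbd2, 0.880 to 0.897) and Hapln4 (Sp2, Edc4 and Smg5, 0.951 to 0.955) rest on few reads. No member was among the 3 nearest of another.

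Other genes of the matrix, from lists chosen with earlier results in view, also gave no call at an adjusted p of 0.05 by edgeR. Of 12 tested further matrix genes 10 had positive fold changes (median log2 0.15), and 3 had an unadjusted p under 0.05, all higher, where the share over all genes was 5.53%. The median ranged from 0.08 (without WT replicate 1) to 0.25 (without ErbB4-/- replicate 3) as libraries were left out in turn, and was 0.10 without ErbB4-/- replicate 1 and 0.24 without WT replicate 2. Hapln3, the link protein gene next to Acan, went from 1.26 ± 0.296 to 2.03 ± 0.142 CPM without overlap (log2 fold change 0.69, unadjusted p 0.00408 by edgeR). Tnc, the tenascin of germinal zones, went from 95.1 ± 9.61 to 125 ± 21.2 CPM (0.39, unadjusted p 0.00549 by edgeR), and Spock1, a testican, from 93.6 ± 11.4 to 113 ± 13.5 CPM (0.27). Both overlapped between genotypes. The abundant testican Spock2 (182 ± 26.0 and 194 ± 10.03 CPM) and Reln, the signal of Cajal-Retzius cells (167 ± 30.1 and 196 ± 24.4 CPM), overlapped between genotypes.

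Genes for hyaluronan and its turnover included none with an unadjusted p under 0.05 among 10 tested (4 positive, median -0.03, and -0.07 to 0.03 with libraries left out in turn). The hyaluronidases Hyal2 (45.3 ± 4.30 and 44.6 ± 2.35 CPM) and Tmem2 (143 ± 20.2 and 138.5 ± 10.5 CPM) and the hyaluronan-binding Cemip (11.8 ± 0.915 and 10.3 ± 1.34 CPM) overlapped between genotypes. Of 21 tested enzymes that build and sulfate chondroitin chains, 13 were positive (median 0.03, and -0.002 to 0.04 with libraries left out in turn). None had an unadjusted p under 0.05 by edgeR, where 2 did without WT replicate 1 or 4 and 1 without WT replicate 3. The share of all genes in those fits was 5.93%, 4.95% and 5.78% in that order. The xylose kinase gene Fam20b did not overlap (121 ± 3.98 and 129 ± 1.51 CPM, log2 fold change 0.09), while B3gat3, which completes the linker of the chains, did (79.9 ± 9.77 and 73.5 ± 3.30 CPM).

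Of 13 matrix proteases and their inhibitors, 10 were positive (median 0.07). The median was 0.02 without WT replicate 3 or ErbB4-/- replicate 2, 0.04 without WT replicate 1, 0.12 without ErbB4-/- replicate 3 and 0.15 without WT replicate 2. For the inhibitor Timp3, all ErbB4-/- libraries lay above WT (18.6 ± 2.31 and 23.2 ± 2.60 CPM, log2 fold change 0.31, unadjusted p 0.0138 by edgeR). For Timp1 they all lay under WT, from 0.844 ± 0.348 to 0.426 ± 0.128 CPM (-1.003, unadjusted p 0.0137 by edgeR), at few reads, and Timp2 was 179 ± 8.10 and 192 ± 8.77 CPM. Of 16 tested receptors and ligands of these proteoglycans, 12 were positive (median 0.07, and 0.04 without WT replicate 1) and 3 had an unadjusted p under 0.05, beside 5.53% of all genes. The 3, all overlapping between genotypes, were Rtn4rl1, a Nogo receptor relative that binds chondroitin sulfate (log2 fold change 0.39), Cntn1, a ligand of Ptprz1 (0.30), and Ncam1, a partner of Ncan (0.14). The count was 0 without WT replicate 3, WT replicate 4, ErbB4-/- replicate 2 or ErbB4-/- replicate 3. It was 1 without ErbB4-/- replicate 1, 2 without WT replicate 1 and 5 without WT replicate 2. The share of all genes also moved, from 2.9% without ErbB4-/- replicate 2 to 9.4% without WT replicate 2. Ptprs, a chondroitin sulfate receptor, held 1068 ± 124 and 1081 ± 46 CPM.

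Several marker lists had fold changes mostly of 1 sign without any gene passing an adjusted p of 0.05 by edgeR. The part of these markers in the members' values was not tested. Beside the counts that follow, 5.53% of all genes had an unadjusted p under 0.05 by edgeR. With libraries left out in turn that share was 2.9% to 9.4%. Of 9 radial glia markers 8 had negative fold changes and 4 of these an unadjusted p under 0.05 (median -0.19), with summed CPM of 2045 to 2569 in WT and 2041 to 2257 in ErbB4-/-. The count of 4 was 1 without ErbB4-/- replicate 1 or 2 and 2 without WT replicate 4. All 7 oligodendrocyte precursor markers were positive, 3 with an unadjusted p under 0.05 (median 0.18), with sums of 89.8 to 110 CPM in WT and 98.3 to 118 CPM in ErbB4-/-. That median was 0.12 without ErbB4-/- replicate 1, and the count was 2 without WT replicates 1 or 4 or without ErbB4-/- replicates 1, 2 or 3. Of the 5 dorsal telencephalon markers 0 were positive (median -0.12, and -0.08 without ErbB4-/- replicate 1), none with an unadjusted p under 0.05 (1 without WT replicate 1 or 3, and 2 without ErbB4-/- replicate 4), with sums of 1437 to 1605 CPM in WT and 1397 to 1549 CPM in ErbB4-/-. Sums for ganglionic eminence and interneuron markers were 462 to 629 CPM in WT and 454 to 639 CPM in ErbB4-/-, for neurons 8344 to 8633 and 8473 to 9048 CPM, and for astrocytes 302 to 322 and 294 to 309 CPM. Of 5 tested astrocyte markers 3 were positive (median 0.06, and 0.01 without ErbB4-/- replicate 1, 0.11 without WT replicate 1, 0.10 without ErbB4-/- replicate 3 and 0.14 without WT replicate 2). Their log2 fold changes were 1.04 for Gfap (0.737 ± 0.159 CPM in WT and 1.51 ± 0.565 in ErbB4-/-, overlapping), 0.48 for Aqp4, 0.06 for Slc1a2, -0.01 for Aldh1l1 and -0.15 for Aldoc, and Gfap alone had an unadjusted p under 0.05 (0.00454 by edgeR), where 3 did without WT replicate 2 or ErbB4-/- replicate 4. Meningeal fibroblast markers summed to 13.1 to 15.9 and 12.6 to 20.9 CPM, vascular cells to 163 to 180 and 167 to 180 CPM, microglia to 39.1 to 48.5 and 40.9 to 48.2 CPM, and red blood cells to 31.8 to 56.6 and 20.8 to 35.2 CPM. The embryonic globins Hba-x (6.24 ± 0.954 and 2.71 ± 1.63 CPM, log2 fold change -1.23, unadjusted p 0.00221 by edgeR) and Hbb-y (26.6 ± 9.13 and 8.20 ± 6.89 CPM, -1.72, unadjusted p 0.00271 by edgeR) had negative values, with overlap. Without ErbB4-/- replicate 4, 1 of the 4 tested red blood cell markers passed an adjusted p of 0.05. Among the red blood cell markers Hba-a1, Hba-a2 and Hbb-b2 had no reads. With Xist as a covariate, a fit that gave 1.68% of all genes an unadjusted p under 0.05, such genes numbered 1 of 9 radial glia markers (median -0.22), 2 of 7 oligodendrocyte precursor markers (0.33), 1 of 12 further matrix genes (0.09) and 0 of 16 receptors and ligands (0.03). In that fit the medians were 0.09 for proteases and inhibitors, -0.01 for chondroitin sulfate synthesis and 0.04 for hyaluronan. They were -0.19 for dorsal telencephalon and 0.17 for astrocytes. Ganglionic eminence and interneuron markers went from 3 of 7 positive without the covariate (median -0.02) to 7 of 7 with it (median 0.26). In that fit WT replicate 4 alone stands for WT at the Xist level of ErbB4-/-. With no covariate, 0 of 7 were positive without WT replicate 4 or ErbB4-/- replicate 1 (median -0.08 in each). The number was 6 without WT replicate 2, WT replicate 3 or ErbB4-/- replicate 3 (medians 0.07, 0.05 and 0.085).

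**Figure D5:**
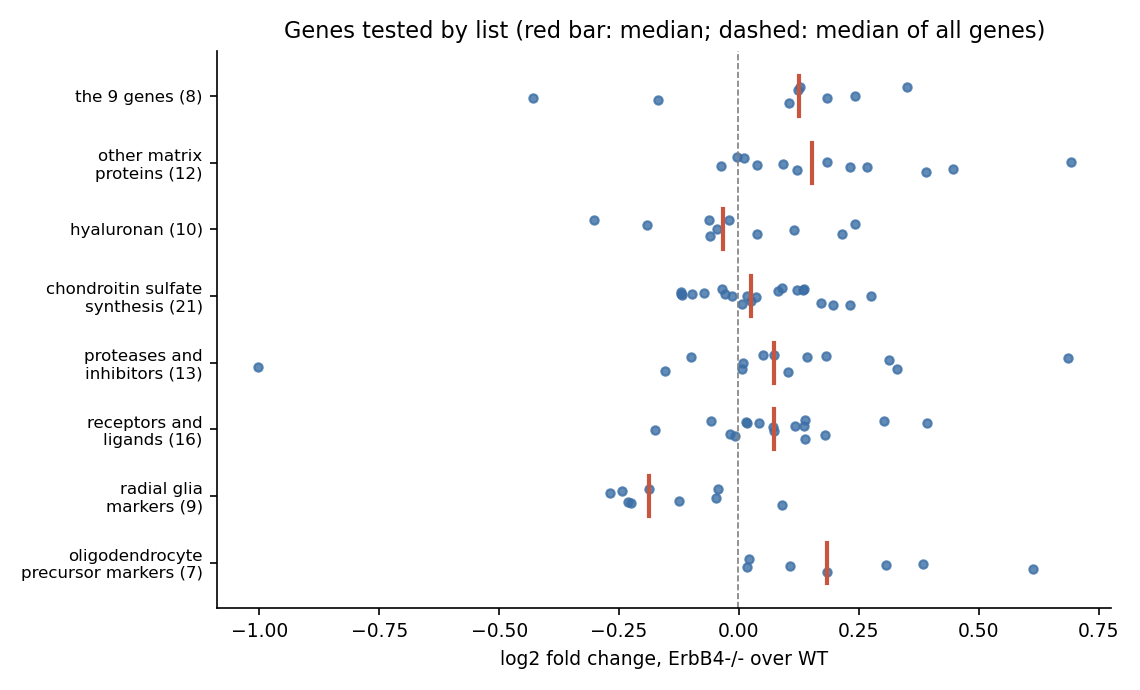
log2 fold change of every tested gene in the members, the 5 related lists and the markers of radial glia and oligodendrocyte precursors, each point a gene, with a red bar at the list's median and a dashed line at the median of all genes. The medians of the related lists lie between -0.03 and 0.15, those of the markers at -0.19 and 0.18, and no gene shown passed an adjusted p of 0.05 by edgeR.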

How the data were processed

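PolyA RNA was sequenced as single-end reads of 50 nucleotides from libraries that do not keep the strand. The authors aligned them to mm9 using HISAT, counted them with HTSeq-count and deposited the raw count of every gene symbol, with no normalization. Versions, annotation and counting mode are not given in the sources used here. Their DESeq2 table of fold changes, Wald statistics and p-values was not used. Groups were taken from the sample labels.

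Counts were tested in R 4.3.3 with edgeR 4.0.16 by the quasi-likelihood test after TMM scaling, with genes kept by filterByExpr (count of 10, total of 15) and p-values adjusted by Benjamini-Hochberg over 14696 genes (threshold 0.05). CPM values use TMM library sizes, and log2 CPM values a prior count of 2. Single values were also compared by the exact two-sided permutation test over 70 assignments. Lengths for RPKM came from merged GENCODE exons matched by symbol, 21709 of 23284. Total counts set the counting error, which the fitted model includes.

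The members and gene lists were chosen with earlier results of these data known. The text names all members. From the 5 related lists it names each gene past the threshold, the pair with the highest mean CPM and the gene with the smallest p. It also names the 3 genes with mean CPM of at least 1 most correlated with each member. Tnc, Spock1, Cntn1 and the marker genes given singly were added after their values were seen. Cemip is listed in the files under an older symbol.

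Alternatives were DESeq2 1.42.0, limma-voom (limma 3.58.1), other normalizations and filters, Xist as a covariate, a length trend removed, a block for replicate number and each library left out in turn. Simulated counts were used to check the genotype fits of edgeR, limma-voom and DESeq2 and the removal of the length trend. No replicate pair agreed within sampling noise. Plots used Python 3.11.15 and matplotlib 3.10.9.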

Additional observations from a re-analysis of the deposited data

Results flagged for a closer look

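Ncan in the libraries labelled ErbB4-/- was set apart by replicate 3. Its 475 CPM lay under the other 3, and on the log2 CPM scale its gap to the nearest of them was 0.944 of the group's range. Tnr in the WT libraries was set apart by replicate 1 at 9.70 CPM, with a gap of 0.915 of the range on the same log2 scale. Both gaps exceed the limit of Dixon's test at 95%. In all, 18 groups of 4 libraries were examined, and chance flags about 1 in 20 of them.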

How the results depend on the processing

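No member passed the threshold under any of the 17 alternatives, and of 134 member log2 fold changes under them 131 kept their direction. Bcan turned to -0.047 and Hapln1 moved to -0.97 with Xist as a covariate, a fit in which WT replicate 4 alone stands for WT at the Xist level of ErbB4-/-, Vcan ranged from -0.031 to 0.18 and Hapln1 from -0.42 to 0.25 when libraries were left out in turn. The log2 fold change of Ncan ranged from 0.16 to 0.50 over all alternatives (adjusted p 0.525 to 1), and that of Tnr from 0.11 to 0.46 (adjusted p 0.551 to 1). With libraries left out in turn, Bcan ranged from 0.02 to 0.20, Cspg5 from 0.07 to 0.18, Ptprz1 from 0.09 to 0.25 and Hapln4 from -0.67 to -0.24. The causes were not tested. Members with an unadjusted p under 0.05 by edgeR numbered 1 to 2 when libraries were left out, beside 2.9% to 9.4% of all genes. Ncan was among them each time, with Cspg5 without WT replicate 1 and Ptprz1 without WT replicate 3. With the length trend removed there were 0, beside 7.02% of all genes. Members whose genotypes do not overlap numbered 1 to 2. Ncan stood beside Tnr without WT replicate 1 or ErbB4-/- replicate 3, and Ptprz1 beside Tnr without WT replicate 3. Leaving out a library can remove overlap but, scaling aside, cannot create it, so these counts do not test stability. The share of all genes was 3.34% with all 8 libraries and is not given here for fewer.

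Over all genes, the 4 calls became 23 with DESeq2, 1 with relative log expression or upper-quartile normalization, 1 with Xist as a covariate, 2 with the length trend removed and 1 to 13 when libraries were left out, 13 of them without WT replicate 4. With the replicate number as a block (replicate block), 1 gene was called and 4 members had an unadjusted p under 0.05 (Ncan, Tnr, Cspg5 and Ptprz1), beside 6.97% of all genes in that fit. The numbers did not pair the libraries: same-numbered deviations correlated at 0.02 to 0.14, and only replicates 1 and 2 correlated best with their own number. Hapln1 and Hapln4 gave no value under a mean of at least 50 counts. Depth limits Acan, Hapln1 and Hapln4, with 66, 108 and 188 reads in all, and Xist follows genotype in 7 of the 8 libraries.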
